A study of Mus musculus with 6 samples.

Results

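The genes described here are 35 transcripts known to be induced in reactive astrocytes, read out in 6 bulk RNA sequencing libraries of mouse cortical cultures. They were taken by name: 34 of the 35 were found under their own symbol among the 24411 genes of the count table, and Chi3l1 was found under Chil1, for which RefSeq lists it as a synonym. Of the 35, 32 had enough counts to be tested, among 13919 genes tested in all. The cultures were started from the cortex of embryos at day 18 of gestation and grown in the presence of serum at seeding and then in a commercial neuron medium. In 1 group, 3.45 µM of preformed fibrils (PFF) of mouse α-synuclein was added on day 10 in vitro. The other group had phosphate-buffered saline (PBS), and total RNA of both was taken on day 18. For strain, sex and genotype, nothing is stated in the sources used here. Each group held 3 libraries, numbered as in their titles. No label ties a library to a culture or litter of its own, so p-values express the spread between these libraries, which may be technical.

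Astrocytes respond to injury, infection and protein aggregates with a set of changes called reactivity. Its hallmark is more intermediate filament protein (GFAP, vimentin, nestin). Much of it is driven by cytokines of the interleukin-6 family, which bind receptors that share the subunit gp130 (gene Il6st) and activate the transcription factor STAT3. Other arms run through NF-kB, and microglial signals are among the known triggers. Earlier work in mouse sorted many of these genes into pan-reactive genes, induced in astrocytes by both bacterial endotoxin and ischaemia, and genes more typical of either stimulus. That grouping is used below only as a way to order the members. The remaining members are signalling genes and other secreted or structural products.

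In the fibril-treated cultures 8 members rose and none fell, whereas the filament genes and the gp130 to STAT3 machinery did not pass the test. The 8 were Serpina3n, Steap4, S1pr3, Chil1, Emp1, Srgn, Lcn2 and Tgm2. They made up 25% of the 32 tested members, against 3.98% of all tested genes that were higher and 2.6% that were lower at an adjusted p under 0.05. Of the 32 tested members 25 had a log2 fold change above 0, as did 6947 of the 13919 genes. The members' median log2 fold change was 0.20, beside 0.00 over all genes. The 3 PFF libraries lay above the 3 PBS libraries for 14 of the 32, against 13.4% of all genes, and below them for 1 (B3gnt5), against 11.6%. Counts and medians are over the 32 members with enough counts, and a member that enters through 1 group alone is more likely to differ. Steap4, Tgm2 and Tgm1 entered through the PFF libraries alone. Because the RNA is that of a whole culture, a change in the number of cells of a type cannot be told apart from a change in the RNA each holds.

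**Figure D1:**
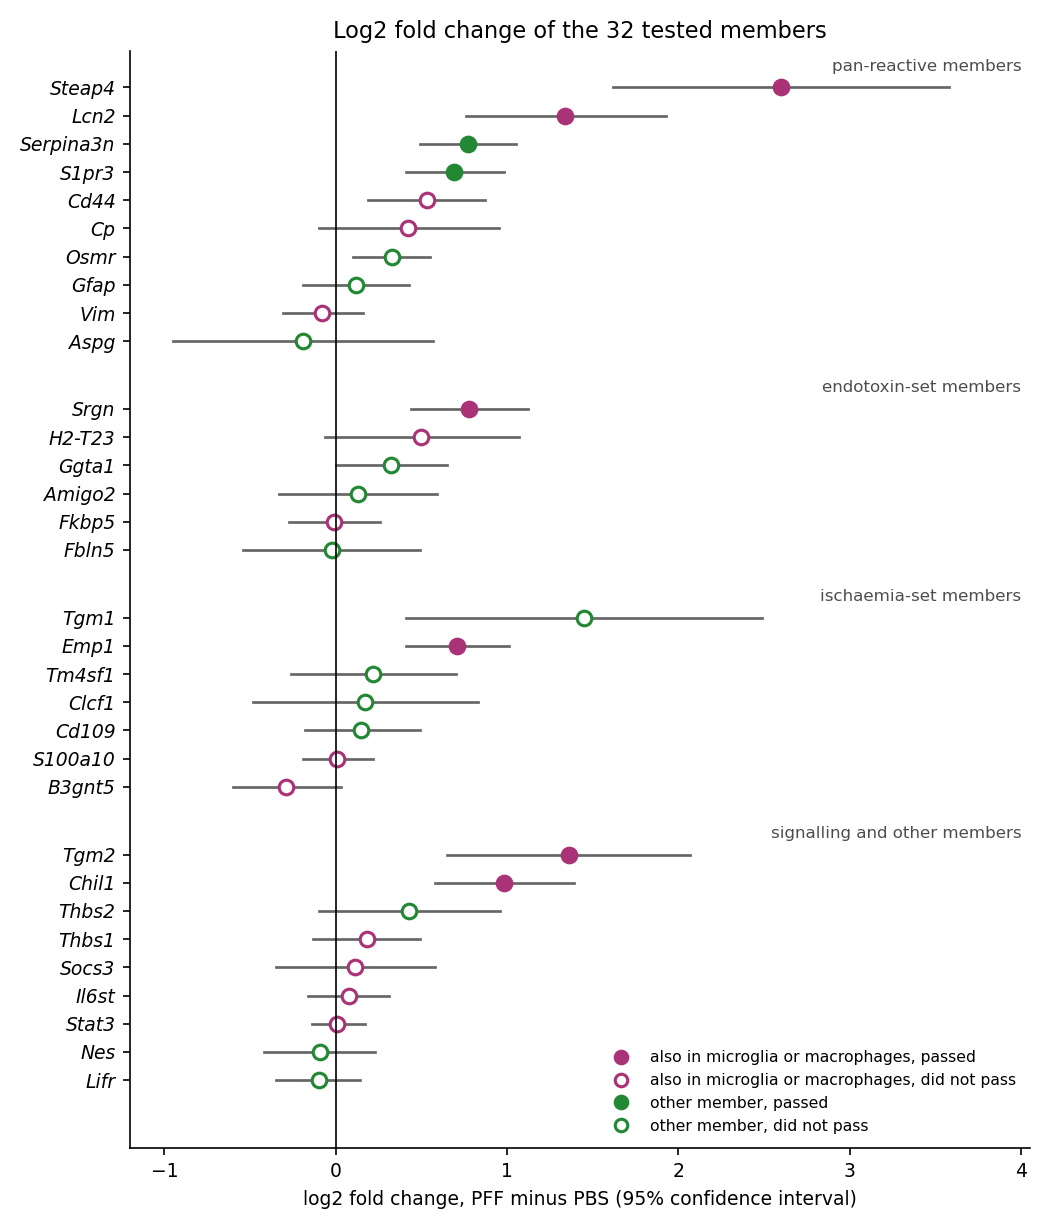
Log2 fold change (PFF minus PBS) of the 32 tested members with 95% confidence intervals, ordered within 4 groups of members. Filled points passed at an adjusted p under 0.05, and purple marks members that microglia or macrophages are also known to express. The 8 filled points run from 0.69 (S1pr3) to 2.60 (Steap4), and those of Gfap, Vim, Nes and Stat3 sit between −0.09 and 0.12.

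The libraries held 9224974 to 10742383 estimated counts. Replicate 3 stood apart from replicates 1 and 2 in both groups on the second principal component (−14.5 and −18.0, against 2.53 to 13.1 for the other libraries). Among the tested members, PFF 3 was the highest of the 6 libraries for 19 and PBS 2 the lowest for 19. Over all tested genes PFF 3 was the highest library for 15.9% and PBS 2 the lowest for 12.9%. With replicates 1 and 2 only, 7 of 31 tested members rose and none fell (Lcn2 and S1pr3 no longer passed, and Cd44 did), while 8.78% of all genes were higher. Astrocyte and neuron markers were both abundant in these cultures, which the labels describe as neurons: the summed level of 18 homeostatic astrocyte markers was 4469 to 6120 CPM (TMM-normalised counts per 1000000), and that of 14 neuron markers 5828 to 6774 CPM.

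Lcn2, Steap4, S1pr3 and Serpina3n were the pan-reactive members that rose, 4 of 10. Serpina3n encodes a secreted inhibitor of serine proteases. It was at 19.0, 15 and 20.2 CPM in PBS 1, 2 and 3, and at 28.3, 28.2 and 35.8 CPM in PFF 1, 2 and 3. Every PFF library was above every PBS library, with PFF 3 highest and PBS 2 lowest. The means were 18.1 ± 2.71 and 30.8 ± 4.39 CPM (SD, n = 3 per group here and below), a log2 fold change of 0.77 ± 0.13 (SE), adjusted p = 0.00256 in edgeR's quasi-likelihood test. The call held with each library left out in turn (adjusted p at most 0.0139). Serpina3n stands in a cluster of near-identical paralogs and 1 of its counts is not whole, so part of its reads may be shared. Reactive oligodendrocytes are also known to express it, and among 12 oligodendrocyte lineage markers 5 rose and 7 fell in the same libraries. Their part in the result was not tested.

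S1pr3 encodes a receptor for the lipid mediator sphingosine-1-phosphate. It was at 50.3, 33.8 and 42.8 CPM in PBS and 68.4, 59.8 and 76.9 CPM in PFF. The groups did not overlap. Over all libraries its level per kilobase of exon (12.4 CPM per kb) was close to that of Serpina3n (11.8 CPM per kb), and both stood above the other members that rose (0.337 to 4.60 CPM per kb). Its log2 fold change was 0.69 ± 0.13 (adjusted p = 0.00579). With replicates 1 and 2 only it no longer passed (0.62, adjusted p = 0.0868).

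Lcn2 encodes lipocalin-2, a secreted protein that binds bacterial iron carriers and marks strongly reactive astrocytes. It was at 10.3, 4.46 and 5.86 CPM in PBS and 15.9, 13.5 and 22.4 CPM in PFF. The groups did not overlap, but PBS 1 stood well above PBS 2 and PBS 3 and close to PFF 2. The log2 fold change was 1.34 ± 0.27 (adjusted p = 0.0120). It did not pass without PBS 3 (adjusted p = 0.100), with replicates 1 and 2 only (0.0739) or with no low-count filter (0.0914).

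Steap4 encodes a metalloreductase of iron and copper that inflammatory cytokines induce. Its estimated counts were 4, 2 and 3 in PBS and 23, 12 and 23 in PFF, or 0.433, 0.194 and 0.288 CPM against 2.21, 1.17 and 2.27 CPM. All 3 PFF libraries were well above the PBS libraries, although the level stayed low in both groups (0.347 CPM per kb). Steap4 had too few counts in PBS for the low-count filter and was tested through its PFF libraries alone, which favours a rise. Its change was the largest among the tested members, with a log2 fold change of 2.60 ± 0.46. The 95% confidence interval was 1.62 to 3.58 and the adjusted p = 0.00322. No single library decided the call (adjusted p at most 0.0183 with any 1 left out).

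**Figure D2:**
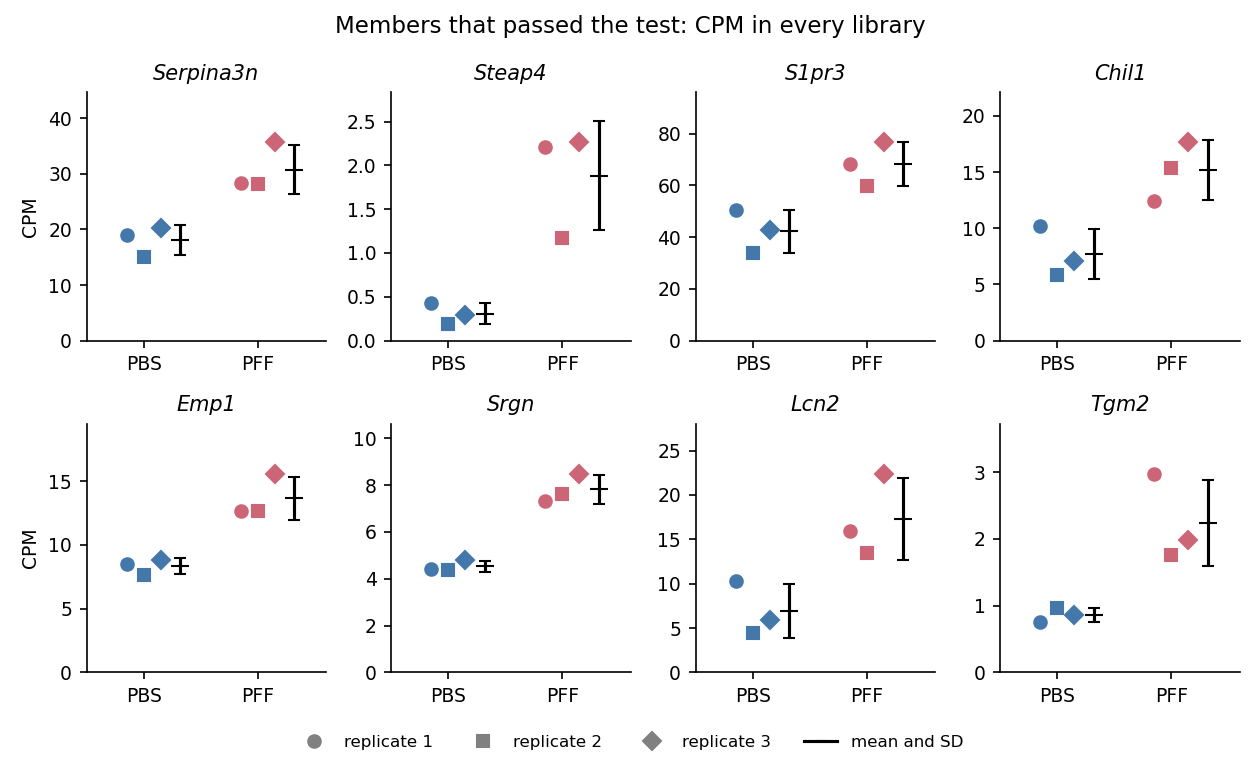
CPM of the 8 members that passed the test in each PBS (blue) and PFF (red) library, with the symbol giving the replicate number and black marks the mean and SD of 3 libraries. In every panel the 3 PFF libraries lie above the 3 PBS libraries. Steap4 and Tgm2 are below 3 CPM in all libraries.

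The remaining 6 pan-reactive members did not pass. Cd44, the receptor for the matrix polysaccharide hyaluronan, was at 7.90, 6.40 and 9.61 CPM in PBS and 11.2, 11.1 and 12.3 CPM in PFF. Its groups did not overlap, and its log2 fold change of 0.53 ± 0.16 had an adjusted p = 0.0643. It passed with replicates 1 and 2 only (0.65, adjusted p = 0.0111), without PBS 3 (0.0228), with scaling by library size only (0.0471) and with no low-count filter (0.0392). The ferroxidase gene Cp (ceruloplasmin) had a log2 fold change of 0.42 ± 0.24 and the asparaginase gene Aspg −0.19 ± 0.35, with overlapping groups for both. The other 3 were Osmr, Gfap and Vim.

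Gfap, the defining filament gene of astrocytes, had by far the highest level per length of the 35 members, at 418 CPM per kb, followed by Vim at 78.3 and S100a10 at 68.2. Gfap was at 1811, 1425 and 1827 CPM in PBS and 1580, 1615 and 2309 CPM in PFF. PFF 3 was the highest library, and PFF 1 and PFF 2 lay inside the range of the PBS libraries. The log2 fold change was 0.12 ± 0.14, with a 95% confidence interval of −0.19 to 0.43 (adjusted p = 0.682). With replicates 1 and 2 only the log2 fold change was −0.01. The interval leaves out a doubling or a halving of Gfap in these libraries, and leaves in changes up to its bounds.

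Vim encodes vimentin, the filament protein of astrocytes, progenitors, microglia and mesenchymal cells. It was at 419, 320 and 406 CPM in PBS and 355, 322 and 408 CPM in PFF, and the groups overlapped almost completely (−0.08 ± 0.11; interval −0.31 to 0.16). Nes encodes nestin, a filament protein of neural progenitors that reactive astrocytes take up again. Its levels were 33.1, 30.9 and 43.6 CPM in PBS and 30.1, 29.3 and 41.5 CPM in PFF. Replicate 3 was the highest library in each group, and the groups overlapped (−0.09 ± 0.15; interval −0.42 to 0.23).

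Among the receptors of the gp130 pathway, none passed. Il6st was at 53.5, 53.2 and 68.9 CPM in PBS and 60.3, 56.1 and 69.0 CPM in PFF. Replicate 3 was again highest in both groups, and the log2 fold change was 0.08 ± 0.11 (interval −0.16 to 0.31). Osmr encodes the receptor subunit that binds oncostatin M together with gp130. It was at 21.3, 20.1 and 19.9 CPM in PBS and 25.3, 23 and 28.5 CPM in PFF. These groups did not overlap, the log2 fold change was 0.33 ± 0.11 and the adjusted p = 0.0877. When replicate 3 was fitted as a batch it passed (adjusted p = 0.0273). Lifr, the receptor subunit for leukaemia inhibitory factor, had −0.10 ± 0.11, from 27.9 ± 2.29 to 25.9 ± 3.49 CPM (0.07 with replicates 1 and 2 only).

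Downstream of these receptors, Stat3 was at 114, 107 and 104 CPM in PBS and 112, 110 and 106 CPM in PFF. The libraries of both groups fell in 1 narrow range, and the interval of the log2 fold change was −0.14 to 0.17. Socs3, the feedback inhibitor that STAT3 itself induces, was at 4.42 ± 1.21 and 4.75 ± 0.615 CPM (0.11 ± 0.22). The gp130 ligand gene Clcf1 was at 1.68 ± 0.366 and 1.89 ± 0.505 CPM (0.17 ± 0.30). These are transcript levels, and STAT3 is known to be controlled mainly by phosphorylation, which was not measured here.

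**Figure D3:**
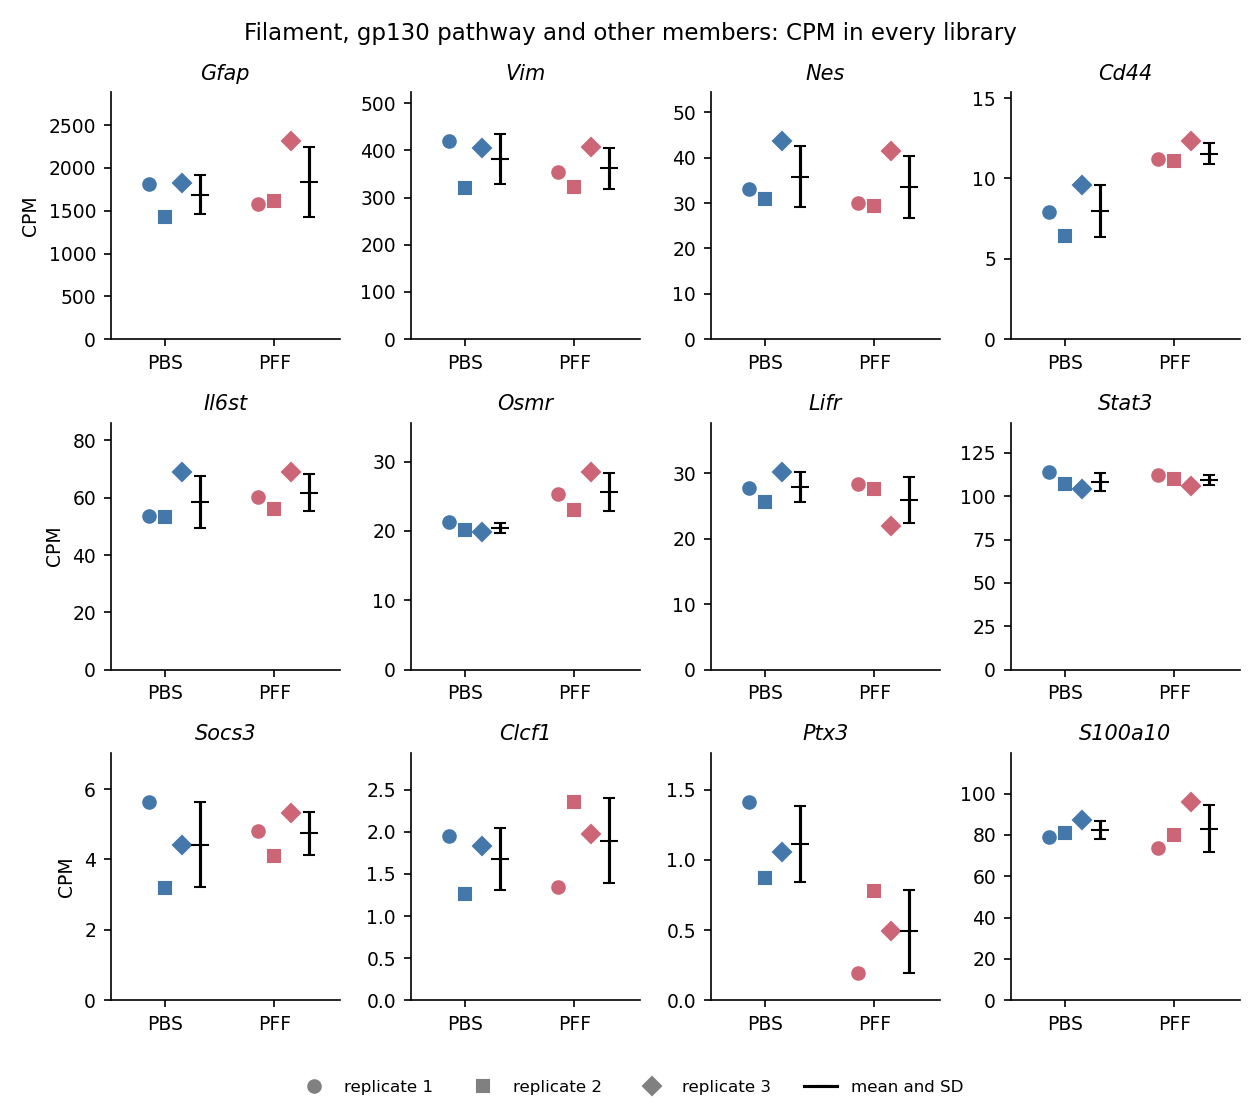
CPM in each library of 12 members that did not pass the test or were not tested, with PBS in blue, PFF in red, the replicate number as the symbol and black marks for the mean and SD of 3 libraries. Gfap, Vim, Nes, Il6st and Stat3 overlap between the groups, while Cd44 and Osmr are higher in all 3 PFF libraries and Ptx3 is lower in all 3.

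Of 32 other gp130, JAK and STAT genes (ligands, receptors, kinases, STAT factors and inhibitors), 26 were tested. Of these 3 rose and none fell, and the median log2 fold change was 0.01. Over all tested genes 3.98% were higher and 2.6% lower. The 3 were the phosphatase gene Ptpn6 (1.56 ± 0.17), known mainly from blood and immune cells, Stat6 (1.32 ± 0.16), and the kinase gene Pim1 (0.87 ± 0.23). Stat6 acts downstream of interleukin-4. In other fits up to 2 of the 26 were called lower. Tyk2, which encodes a kinase of this family, was at 25 ± 2.75 and 19.2 ± 1.21 CPM (−0.38 ± 0.11, adjusted p = 0.0595), with all PFF libraries below PBS. It passed with no low-count filter (0.0328), with replicates 1 and 2 only (0.0124) and with replicate 3 fitted as a batch (0.00861). Stat2, a factor of interferon signalling, had −0.33 ± 0.11 (adjusted p = 0.100) and passed in the last of these fits (0.0224). Both were chosen after their values were seen. Pim1 had an adjusted p = 0.0355 and passed in 1 of the 6 fits that leave out a library (up to 0.204). Interleukin-6 (Il6) was listed at 0 in all 6 libraries. Oncostatin M (Osm), a ligand made by myeloid cells, had 1, 0 and 1 counts in PBS and 8, 4 and 10 in PFF and was too low for the test. It passed only with no low-count filter (adjusted p = 0.0138), and it was singled out after its values were seen. Leukaemia inhibitory factor (Lif) was at 3.65 ± 0.476 and 3.06 ± 0.366 CPM (−0.26 ± 0.21).

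Among the 6 endotoxin-set members, Srgn alone passed. It encodes serglycin, the core protein of proteoglycans stored in granules of blood-derived cells. Its levels were 4.43, 4.36 and 4.81 CPM in PBS and 7.32, 7.63 and 8.49 CPM in PFF. The spread within each group was small and the groups were well apart, at 0.78 ± 0.16 on the log2 scale (adjusted p = 0.00862). The other 5 had log2 fold changes of −0.02 to 0.50. H2-T23, which encodes a non-classical class I molecule, was highest among these 5 with 0.50 ± 0.26 (adjusted p = 0.290), and its counts are fractional, so part of its reads may be shared with related class I genes. The glycosyltransferase gene Ggta1 had 0.32 ± 0.15 (adjusted p = 0.238), with its PFF libraries above its PBS libraries. Amigo2 (an adhesion molecule), Fkbp5 (a co-chaperone of the glucocorticoid receptor) and Fbln5 (an elastic fibre protein) had values of 0.13, −0.01 and −0.02 with overlapping groups.

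Emp1, a small membrane protein of the ischaemia set, was the only 1 of its 7 tested members to pass. It was at 8.54, 7.66 and 8.85 CPM in PBS and 12.7, 12.7 and 15.6 CPM in PFF. The groups were separate, with a log2 fold change of 0.71 ± 0.14 (adjusted p = 0.00681, and at most 0.0333 with each library left out in turn). Tgm1 encodes a transglutaminase best known from skin. It was at 0.865, 0.388 and 0.192 CPM in PBS and 1.16, 0.978 and 1.78 CPM in PFF. Its groups did not overlap, but the level was low and the log2 fold change of 1.45 ± 0.48 had an adjusted p = 0.0993. With any 1 library left out it did not pass either (0.0657 to 0.247), and with replicate 3 fitted as a batch it did (0.0499).

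The other tested members of the ischaemia set had log2 fold changes from −0.29 to 0.22. S100a10, the partner of annexin A2 and an often used marker of this set, was at 82.4 ± 4.41 CPM in PBS and 83.1 ± 11.4 CPM in PFF (0.01 ± 0.10; interval −0.19 to 0.22). B3gnt5, which encodes a glycolipid synthase, was the only tested member with all PFF libraries below the PBS libraries (11.8 ± 0.326 against 9.66 ± 1.64 CPM; −0.29 ± 0.14, adjusted p = 0.278). Cd109, a membrane-anchored modulator of TGF-β signalling, had 0.15 ± 0.15, and the tetraspanin-like gene Tm4sf1, also found in vessels, 0.22 ± 0.22. Ptx3, Sphk1 and Slc10a6 were too low for the test. The pentraxin gene Ptx3 had 13, 9 and 11 counts in PBS and 2, 8 and 5 in PFF, lower in every PFF library, with an adjusted p = 0.177 when no low-count filter was applied. The sphingosine kinase gene Sphk1 had 8, 15 and 15 counts against 7, 9 and 9. The transporter gene Slc10a6 had 0 in the PBS libraries and 1, 0 and 1 in PFF.

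The signalling and other members held the last 2 that rose. Chil1 (Chi3l1) encodes a secreted chitinase-like protein of reactive astrocytes and macrophages. It was at 10.2, 5.82 and 7.11 CPM in PBS and 12.4, 15.4 and 17.7 CPM in PFF. The groups did not overlap, and the rise of 0.98 ± 0.19 (adjusted p = 0.00631) held with each library left out (at most 0.0353). Tgm2, a transglutaminase that crosslinks proteins, had 7, 10 and 9 counts in PBS and 31, 18 and 20 in PFF, or 0.757, 0.970 and 0.865 against 2.98, 1.76 and 1.98 CPM. PFF 1 was the highest of the PFF libraries. Its log2 fold change of 1.36 ± 0.33 had an adjusted p = 0.0253, but it passed in only 2 of the 6 fits that leave out a library (up to 0.126), and had 0.0580 in DESeq2. Of its exonic bases 21.8% lie opposite exons of another gene, so its counts are uncertain unless strand was used. Thbs1 and Thbs2 encode thrombospondins, which astrocytes secrete and which promote synapse formation. They had 0.18 ± 0.14 and 0.43 ± 0.25 (adjusted p = 0.504 and 0.336).

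On GRCm38 (mm10) the members that rose are protein-coding genes on separate chromosomes, apart from Lcn2 and Tgm2. Serpina3n lies at chr12:104406729-104414329, S1pr3 at chr13:51408639-51422797 and Steap4 at chr5:7960457-7982213. Lcn2 lies at chr2:32384633-32388252 and Tgm2 at chr2:158116402-158146436. Emp1 lies at chr6:135362545-135383173, Srgn at chr10:62493833-62527451 and Chil1 at chr1:134182176-134190181. Counts are per gene, so no exon or transcript can be singled out.

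The 250 bases before each RefSeq gene start were searched on both strands for the STAT half-site pair TTCNNNGAA and the AP-1 site TGANTCA, since STAT3 and AP-1 factors are known regulators of reactive astrocyte genes. Of 35 members 30 had at least 1 such window, 40 windows in all. The STAT letters were found for 5 of these 30 genes (Steap4, Emp1, Tgm1, Sphk1 and Socs3), against 8.13% of all genes with a window, and for 2 of the 7 with a window among those that rose. The AP-1 letters were found for 3 of the 30 (Emp1, Sphk1 and Cp) and 1 of the 7, against 7.82%. The 2 genes that rose and hold the STAT letters were Steap4 and Emp1, and their windows are shown for that reason, together with that of Socs3, the standard STAT3 target among the members, which did not pass the test and was added after its values were seen. Capitals mark the STAT and AP-1 letters. Each is given 5′ to 3′ on the strand of its gene and trimmed to the stretch outside annotated exons.
Steap4, chr5:7960347-7960456, plus strand, GRCm38.p6: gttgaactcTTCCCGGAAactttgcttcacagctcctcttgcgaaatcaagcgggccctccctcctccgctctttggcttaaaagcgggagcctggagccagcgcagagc
Emp1, chr6:135362708-135362903, plus strand, GRCm38.p6: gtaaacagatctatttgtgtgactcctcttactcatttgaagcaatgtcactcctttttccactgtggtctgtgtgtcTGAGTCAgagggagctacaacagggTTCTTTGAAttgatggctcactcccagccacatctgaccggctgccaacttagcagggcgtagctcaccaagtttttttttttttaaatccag
Socs3, chr11:117969452-117969616, minus strand, GRCm38.p6: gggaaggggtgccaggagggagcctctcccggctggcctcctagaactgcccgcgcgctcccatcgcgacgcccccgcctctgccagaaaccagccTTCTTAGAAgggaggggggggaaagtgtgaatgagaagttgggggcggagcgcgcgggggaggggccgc
The STAT letters begin 116 bases before the RefSeq start in Steap4, 120 in Emp1 and 154 in Socs3, and the AP-1 letters of Emp1 begin 145 bases before its start. GENCODE also has transcripts of Emp1 and of Socs3 that start earlier, and in these the stretches shown for both genes are intron. A further AP-1 match and STAT match in Emp1, 25 and 22 bases before the start, overlap each other. They lie in an annotated exon and are not shown. Letters in a window are a description of the sequence, and no binding was measured.

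Microglia or macrophages are also known to express 19 of the 35 members, among them Lcn2, Steap4, Srgn, Emp1, Tgm2 and Chil1. Of the 17 of these that were tested 6 rose, with a median log2 fold change of 0.42. Of the 15 tested members outside that list 2 rose, Serpina3n and S1pr3, with a median of 0.17. Over all tested genes 3.98% were higher, with a median of 0.00. Steap4 and Tgm2, among the 6, were tested through their PFF libraries alone, which favours a rise. So was Tgm1 outside the list, which did not pass. The difference between the lists was not tested. In the same libraries 16 of 18 tested microglia and macrophage markers rose and none fell, with a median of 1.39, and their summed level was 222 to 349 CPM in PBS and 639 to 775 CPM in PFF. The 4 with the smallest p were the integrin gene Itgam (1.89 ± 0.15), the protease gene Ctss (1.42 ± 0.14), the complement gene C1qa (1.56 ± 0.15) and the myeloid transcription factor gene Spi1 (2.09 ± 0.22). Itgam was at 4.55 ± 0.669 and 16.9 ± 1.08 CPM, and Aif1 at 1.86 ± 0.457 and 4.33 ± 1.37 CPM. Of the exonic bases of Itgam 68.7% also lie in exons annotated to another gene on the same strand, so its counts are uncertain. None of the 19 markers was at 0 in any library. The lowest were the markers of resting microglia P2ry12 (1.02 ± 0.369 CPM in PBS, overlapping with PFF) and Tmem119 (0.273 ± 0.138 and 0.423 ± 0.149 CPM). PBS 2 had the lowest microglia marker sum and PFF 3 the highest, the libraries in which most members were lowest and highest. Within the groups the astrocyte marker sum did likewise, lowest in PBS 2 among PBS (4669 CPM) and highest in PFF 3 among PFF (5199 CPM). Over all libraries, however, that sum was lowest in PFF 1 and highest in PBS 3. The part of microglial RNA in the members' rises was not tested.

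Of 17 tested markers of homeostatic astrocytes, 3 fell and none rose, with a median of −0.16: the metabolic gene Aldoc (−0.46 ± 0.09), the glutamate transporter gene Slc1a2 (−0.51 ± 0.10) and Aldh1l1 (−0.42 ± 0.11), the standard pan-astrocyte marker. Aldh1l1 was at 67.4, 56.5 and 77.4 CPM in PBS and 48.0, 48.4 and 54.1 CPM in PFF, and Slc1a2 at 789 ± 134 and 554 ± 6.68 CPM. Without PFF 2 none of the 3 passed (adjusted p = 0.0557 for Slc1a2, 0.0597 for Aldoc and 0.160 for Aldh1l1), and 1 marker was lower without PBS 1. With replicate 3 fitted as a batch 6 fell. With replicates 1 and 2 only 4 fell and 1 rose, the bicarbonate transporter gene Slc4a4 (0.26, adjusted p = 0.0142). The summed level of the 18 markers overlapped between the groups, at 4669 to 6120 CPM in PBS and 4469 to 5199 CPM in PFF, as the plot of marker sums shows.

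**Figure D4:**
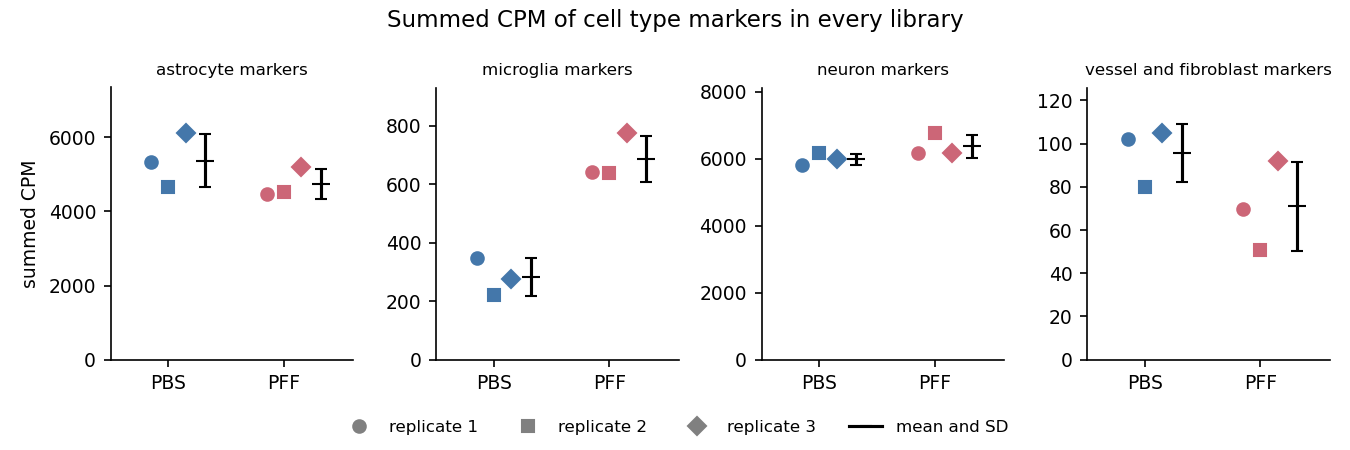
Summed CPM of 4 lists of cell type markers in each PBS (blue) and PFF (red) library, with the symbol giving the replicate number and black marks the mean and SD of 3 libraries. Each panel has its own scale from 0. Microglia markers are higher in all 3 PFF libraries, and astrocyte marker sums overlap between the groups.

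As a description added after the values were seen, each member was divided by the summed astrocyte markers of its library. For all 8 members that rose, the 3 PFF ratios lay above the 3 PBS ratios, as they did for 20 of the 32 tested members and for 15.9% of all genes. The 8 were picked for being higher in PFF and already lay above PBS in CPM, so their ratios are no separate evidence. Serpina3n was at 3.57, 3.22 and 3.30 CPM per 1000 CPM of astrocyte markers in PBS and 6.33, 6.23 and 6.90 in PFF. On this scale PBS 2 was no longer clearly below the other PBS libraries. Gfap, whose CPM overlapped, was at 340, 305 and 298 per 1000 CPM in PBS and 354, 357 and 444 in PFF, so that its groups no longer overlapped. The Vim ratios, 78.7, 68.6 and 66.3 against 79.4, 71.2 and 78.4, still did. Part of each shift comes from the denominator, in which 3 markers fell.

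Divided by the summed microglia markers instead, nearly every gene was lower in PFF: all 3 PFF ratios were below all PBS ratios for 95.6% of all genes and for 28 of the 32 tested members. Of the members that rose, Serpina3n, S1pr3, Srgn, Emp1 and Chil1 were among these 28. Srgn was at 1.27, 1.96 and 1.75 CPM per 100 CPM of microglia markers in PBS and 1.14, 1.19 and 1.10 in PFF, and had thus risen by less than the markers. Lcn2 (2.94, 2.01 and 2.13 against 2.48, 2.11 and 2.89) and Tgm2 overlapped. Steap4 was the only tested member with higher ratios in all PFF libraries, at 0.124, 0.0872 and 0.105 against 0.346, 0.184 and 0.293. It had 2 to 4 counts in PBS and was tested through its PFF libraries alone, which favours such ratios. The share of all genes with PFF ratios above PBS was not determined.

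The reactive astrocyte panels hold 12 further genes that are not among the members. Of these 9 were tested, 4 rose and none fell, and the median log2 fold change was 0.62. Over all tested genes 3.98% were higher, and the median was 0.00. The 4 panel genes that rose were Cd14, the endotoxin co-receptor of myeloid cells (1.23 ± 0.25), the class I gene H2-D1 (0.62 ± 0.13), the metalloproteinase inhibitor gene Timp1 (1.36 ± 0.30) and Ptgs2, the inducible cyclooxygenase (0.72 ± 0.18). Cd14 and H2-D1 passed in all 6 fits that leave out a library, and Timp1 and Ptgs2 in 3 of the 6 such fits (up to 0.0768 and 0.169). The counts of H2-D1 are fractional too, and part of its reads may be shared. Ugt1a1 was listed at 0 in every library. Of its exonic bases 58.9% lie in other genes on the same strand, so its reads may have been assigned elsewhere. The interferon-induced chemokine gene Cxcl10 had −0.32 ± 0.25 (adjusted p = 0.507).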

How the data were processed

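Per the labels' protocols, column-purified total RNA went into a directional (strand-marking) library kit. The authors deposited estimated counts per gene, unscaled, of which 8.69% were not whole. The submitters' processing notes name Trim Galore 0.6.6, STAR 2.7.9a, DESeq2 1.38.3 and the mm10 genome. No counting tool, strand setting or annotation is given in the sources used here.

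Counts were rounded and analysed in R 4.3.3 with edgeR 4.0.16: filterByExpr (10492 genes removed), TMM scaling, and the two-sided quasi-likelihood F-test with robust estimation. The model held the group alone, and p-values were Benjamini-Hochberg adjusted over 13919 genes. A standard error is the log2 fold change divided by the square root of F, and 95% intervals use its t distribution. Alternatives included DESeq2 1.42.0 and limma-voom (limma 3.58.1). The fit was tested on simulated data.

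Members and lists were chosen with earlier results of these data known. Values in every library are given for members with an unadjusted p under 0.05 and for 5 fixed members. From other lists the genes that passed are named (the 4 with the smallest p where more than 6 did) with 4 fixed markers, and others were chosen after their values were seen. Coordinates and exon lengths are from GENCODE vM21, and promoter windows from RefSeq (GRCm38.p6).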

Additional observations from a re-analysis of the deposited data

How the results depend on the processing

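Under the alternatives to scaling, filter, test and samples, no member fell. With at least 50 counts required in 3 libraries, 6 of 22 tested members rose, beside 3.46% of all genes called higher. DESeq2 gave 7 members (beside 3.57% of all genes), as did replicates 1 and 2 only (8.78%). Scaling by library size only gave 9 (4.43%), replicate 3 as a batch term 11 (7.39%) and a replicate block 10 (7.49%). Leaving out each library in turn gave 7 to 8 (2.22% to 6.19%), and the other alternatives gave 8 (3.35% to 3.92%). Of the members' log2 fold changes under all alternatives, 489 kept their sign and side of the threshold, 9 lost the call and 9 gained it. Another 26, in 12 members, changed sign without being called under either setting, and 0 changed sign while called. The number of all genes called, 916, was 2394 with replicates 1 and 2 only, 2005 with replicate 3 as a batch term, and 412 (without PFF 2) to 1858 (without PFF 3) with 1 library left out; the cause was not tested. With a replicate block, 10 members rose (Cd44 and Osmr in addition) and 1997 genes were called. The labels do not say what a shared replicate number marks. Deviations of same-numbered libraries from their group means correlated at 0.0919, 0.109 and 0.202 across genes. Of the other pairs, PBS 2 and PFF 1 correlated at 0.128, and the rest at −0.207 to −0.00869. Whether the numbers mark a shared batch was not tested. With 2 to 18 counts per library, Tgm1 had a 95% interval of the log2 fold change from 0.41 to 2.49.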

Other observations

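Other cell types in the cultures gave these values for their marker lists. Of 14 tested neuron markers 3 rose and none fell (median 0.21 on the log2 scale): the neurofilament gene Nefm (0.67 ± 0.10), the vesicular glutamate transporter gene Slc17a6 (0.56 ± 0.09) and the synaptic vesicle gene Syt1 (0.33 ± 0.09, adjusted p = 0.0489, passing in 1 of the 6 fits that leave out a library). Among the 14 markers of vessel and fibroblast cells, 12 were tested and Tagln alone passed, lower in PFF (−0.78 ± 0.21, adjusted p = 0.0410). It passed in 2 of the 6 fits that leave out a library. The summed level of this list was 80.1 to 105 CPM in PBS and 50.7 to 92.2 CPM in PFF. All 12 oligodendrocyte lineage markers passed, 5 higher and 7 lower in PFF. Of the 4 with the smallest p, Mag (1.41 ± 0.14) and Mobp (1.67 ± 0.20) were higher. Bcas1 (−1.66 ± 0.16) and Gpr17 (−1.22 ± 0.14) were lower.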
